A study of Mus musculus with 8 samples.

Results

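The enzymes described here serve the synthesis of serine, glycine, mitochondrial folate intermediates, asparagine, phosphoenolpyruvate and proline: Phgdh, Psat1, Psph, Shmt2, Mthfd2, Mthfd1l, Aldh1l2, Asns, Pck2 and Pycr1. The genes were chosen by name, with earlier results of these arrays in view, among them the differences between CSA and DMSO. Of these 10 genes, 9 had a probe set to which the platform annotation gives that gene as its single symbol, out of 12529 genes tested in the series. No such probe set was listed for Pycr1, the mitochondrial enzyme of the last step of proline synthesis, which was not analysed here. The probe set that stands for a gene was selected on its signal, as the one with the highest mean over the 8 arrays, and all 9 passed the filter on low signals.

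The RNA came from mouse cells of C57BL/6 background in a secondary system of reprogramming, in which doxycycline, whose dose the labels write as 2 mg per ml, switches on Oct4 (Pou5f1), Sox2, Klf4 and Myc. All groups had doxycycline, in a medium for mouse embryonic stem cells that held leukemia inhibitory factor (100 units per ml) and 15% serum. The 4 groups were CSA at day 3, DMSO at day 3, CSA at day 6 and DMSO at day 6, with 2 arrays each that the design text calls independent repeats. CSA is cyclosporin A, given at a dose written as 10 mM, a cyclophilin ligand that blocks the phosphatase calcineurin, and DMSO is its solvent. The study asked which genes differ under inhibition of calcineurin and NFAT at each day. The starting cell type of the secondary system is not named in the sources used here.

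Serine is made from a glycolytic intermediate by Phgdh, Psat1 and Psph in the cytosol. In the mitochondrion Shmt2 passes a carbon unit from serine to tetrahydrofolate and leaves glycine. Mthfd2 and Mthfd1l carry that unit on to formate, which leaves for purine and thymidylate synthesis, while Aldh1l2 oxidises it to CO2 and makes NADPH. Asns makes asparagine from aspartate, and Pck2 makes phosphoenolpyruvate from oxaloacetate inside mitochondria. Many of these genes are known targets of ATF4, the transcription factor of the integrated stress response. In pluripotent cells serine and glycine feed nucleotide synthesis and methylation.

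All 9 measured enzymes were higher with CSA at day 3, where 7.14% of all tested genes were, by 1.22-fold for Asns up to 15.1-fold for Aldh1l2. In a fit with no intensity trend in the prior variance the count at day 3 was 4. At day 6, 7 of the 9 were higher, beside 6.41% of all tested genes, and Asns and Mthfd1l did not. Between the days 7 of the 9 fell in DMSO cells, as 19.6% of tested genes did, whereas Aldh1l2 and Pck2 rose there, as 26.1% did. For Aldh1l2 and Pck2 the difference between CSA and DMSO was smaller at day 6 than at day 3. With no intensity trend this change between the days passed the threshold for neither gene. Values are log2 signals, differences are on the log2 scale with limma's moderated standard error after ±, and the threshold was a Benjamini-Hochberg adjusted p of 0.05 over all 27022 tested probe sets.

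Over the tested probe sets, the 2 arrays of a group correlated at 0.968 to 0.974, arrays of different treatment and like day at 0.957 to 0.963, and arrays of different days at 0.918 to 0.943. The median signal of an array was 8.44 to 8.47 at day 6, against 8.22 to 8.24 at day 3. Among markers of the labelled cells, Cdh1 read 12.52 to 13.17 and Pou5f1 8.58 to 10.31 over the 8 arrays. Klf4 read 9.82 to 10.58 and Epcam 8.59 to 11.03. Alpl read 8.38 and 8.65 with CSA at day 3, and 6.1 to 6.71 on the other arrays. Pou5f1, Klf4 and Sox2 are also factors switched on by doxycycline, and whether their probe sets read the introduced copies was not tested. The means of Sox2, Nanog and Fut4 over the 8 arrays were below the filter. Nanog itself was above the filter value of 5.37 on every array of day 6, at 7.20 and 6.21 with CSA and 7.51 and 7.56 with DMSO. On day 3 it was at 1.78 and 1.24 with CSA, and at 3.34 and 5.39 with DMSO. Precision is limited throughout by having 2 arrays per group.

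**Figure D1:**
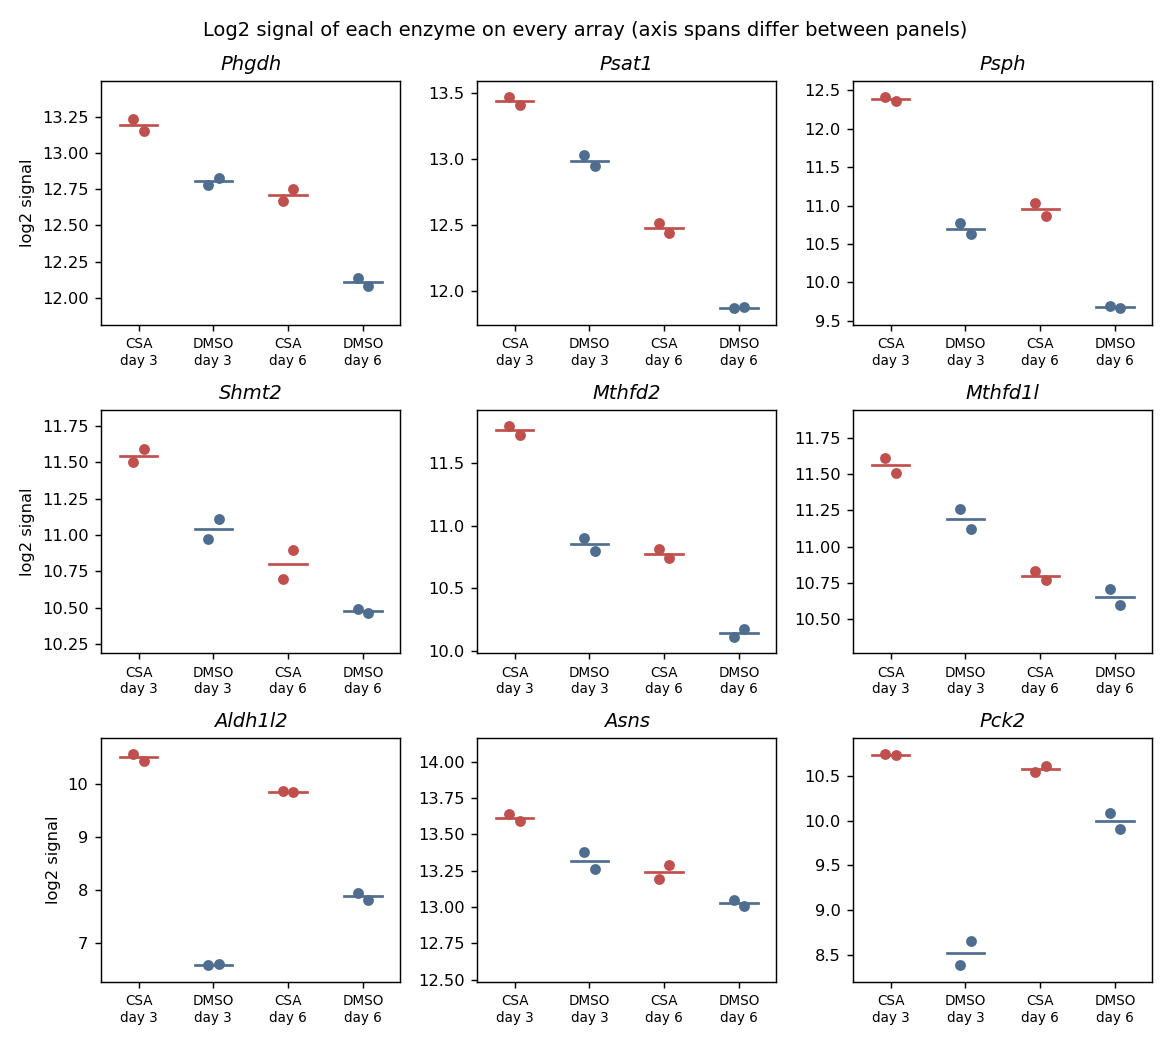
Log2 signal of the 9 enzymes on each of the 8 arrays, with 1 panel per gene, points for arrays, and CSA left of DMSO at each day. The CSA points lie above the DMSO points of the same day in all 9 panels, and at day 3 the gap is widest for Aldh1l2, at 3.92.

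The serine synthesis enzymes came in the order of the pathway as follows. Phgdh, the dehydrogenase of the first step, gave log2 signals of 13.23 and 13.15 with CSA at day 3, against 12.78 and 12.83 with DMSO. At day 6 it gave 12.67 and 12.75 with CSA, against 12.14 and 12.08 with DMSO. Both CSA arrays were above both DMSO arrays at each day, and Phgdh rose by 0.39 ± 0.06 at day 3 (adjusted p = 0.00346, or 0.101 with no intensity trend) and 0.60 ± 0.06 at day 6 (adjusted p = 0.000231).

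Psat1, the aminotransferase of the second step, showed a similar pair of differences. Its signals were 13.47 and 13.41 with CSA at day 3, against 13.03 and 12.95 with DMSO. At day 6 they were 12.52 and 12.44 with CSA, against 11.87 and 11.88 with DMSO. The groups did not overlap at either day, and Psat1 rose 1.36-fold at day 3 (0.45 ± 0.06, adjusted p = 0.00145, or 0.0798 with no intensity trend) and 1.52-fold at day 6 (0.61 ± 0.06, adjusted p = 0.000208).

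Psph, the phosphatase that releases serine, moved most of the 3. It read 12.41 and 12.36 with CSA at day 3, against 10.77 and 10.63 with DMSO, and at day 6 it read 11.03 and 10.87 with CSA, against 9.69 and 9.66 with DMSO. The CSA arrays at day 6 were thus above the DMSO arrays of day 3 as well. Psph rose 3.22-fold at day 3 (1.69 ± 0.09, adjusted p = 1.62e-06) and 2.42-fold at day 6 (1.27 ± 0.09, adjusted p = 1.77e-05). Of 12529 genes ordered by their difference at day 3 it held place 80.

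Among the mitochondrial folate enzymes Aldh1l2 stood apart. Its signals were 10.56 and 10.44 with CSA at day 3, against 6.57 and 6.59 with DMSO. At day 6 they were 9.86 and 9.84 with CSA, against 7.94 and 7.81 with DMSO. The lowest 2 arrays were the DMSO arrays of day 3, and both CSA pairs were above both DMSO pairs. Aldh1l2 rose 15.1-fold at day 3 (3.92 ± 0.14, adjusted p = 1.86e-07), place 1 among all genes, and 3.94-fold at day 6 (1.98 ± 0.14, adjusted p = 1.77e-05), place 52.

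Mthfd2, the dehydrogenase and cyclohydrolase, followed with 11.80 and 11.73 with CSA at day 3, against 10.90 and 10.80 with DMSO. At day 6 its signals were 10.81 and 10.74 with CSA, against 10.11 and 10.17 with DMSO. CSA cells at day 6 thus lay within the range of DMSO cells at day 3 for this gene or just under it. Mthfd2 rose 1.89-fold at day 3 (0.92 ± 0.08, adjusted p = 8.79e-05) and 1.55-fold at day 6 (0.64 ± 0.08, adjusted p = 0.000722).

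Shmt2, the serine hydroxymethyltransferase of mitochondria, gave 11.50 and 11.59 with CSA at day 3, against 10.97 and 11.11 with DMSO. At day 6 it gave 10.70 and 10.90 with CSA, against 10.49 and 10.46 with DMSO. Neither day's groups overlapped. Shmt2 rose by 0.51 ± 0.09 at day 3 (adjusted p = 0.00593, but 0.0669 without CSA day 3 replicate 2 and 0.093 with no intensity trend). At day 6 the difference was 0.33 ± 0.09 (adjusted p = 0.0468), a call that ended under 9 of 18 alternatives, with adjusted p up to 0.26, reached without CSA day 6 replicate 2. It was also lost without CSA day 3 replicate 1 (0.075) or 2 (0.0754) and without DMSO day 6 replicate 1 (0.146) or 2 (0.2).

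Mthfd1l, the synthetase that releases formate, had the smallest difference of the mitochondrial enzymes. Its signals were 11.61 and 11.51 with CSA at day 3, against 11.26 and 11.12 with DMSO, and 10.83 and 10.77 with CSA at day 6, against 10.71 and 10.60 with DMSO. Mthfd1l rose by 0.37 ± 0.09 at day 3 (adjusted p = 0.0198), a call lost without CSA day 3 replicate 1 (0.156) or 2 (0.0697) or DMSO day 3 replicate 2 (0.112), and with no intensity trend (0.141). At day 6 the difference of 0.15 ± 0.09 did not pass (adjusted p = 0.340), although the arrays did not overlap.

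Pck2, the mitochondrial phosphoenolpyruvate carboxykinase, gave 10.74 and 10.73 with CSA at day 3, against 8.38 and 8.65 with DMSO. At day 6 it gave 10.54 and 10.61 with CSA, against 10.08 and 9.90 with DMSO. As for Aldh1l2, the DMSO arrays of day 3 were the lowest. Pck2 rose 4.67-fold at day 3 (2.22 ± 0.12, adjusted p = 1.62e-06), place 21 among all genes, and 1.5-fold at day 6 (0.59 ± 0.12, adjusted p = 0.00893). The call at day 6 was lost without CSA day 6 replicate 2 (0.0609) or DMSO day 6 replicate 2 (0.0864), and with no intensity trend (0.0843).

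Asns, the asparagine synthetase, gave 13.64 and 13.59 with CSA at day 3, against 13.38 and 13.26 with DMSO. At day 6 it gave 13.19 and 13.29 with CSA, against 13.05 and 13.01 with DMSO. The groups did not overlap at either day. Asns rose by 0.29 ± 0.06 at day 3 (adjusted p = 0.0166), which was not kept without CSA day 3 replicate 1 (0.127) or 2 (0.0771) or DMSO day 3 replicate 2 (0.0972), or with no intensity trend (0.186). At day 6 the difference was 0.21 ± 0.06 and did not pass (adjusted p = 0.0638, between 0.00609 and 0.289 over the alternatives run, among them 0.0357 after quantile normalization and 0.0472 with equal medians).

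Counted together, 9 of the 9 measured enzymes rose with CSA at day 3 and 7 of 9 at day 6. With no intensity trend 4 passed at day 3 (Psph, Mthfd2, Aldh1l2 and Pck2) and 5 at day 6 (Phgdh, Psat1, Psph, Mthfd2 and Aldh1l2). None fell at either day. The median difference over the enzymes was 0.51 at day 3 and 0.60 at day 6, beside -0.01 over all tested probe sets at each day. The arrays of CSA lay above those of DMSO for all 9 at both days, as they did for 25.1% of tested probe sets at day 3 and 26.4% at day 6. Because the list was drawn up with these results known, the counts describe the enzymes and are no independent evidence of their direction.

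**Figure D2:**
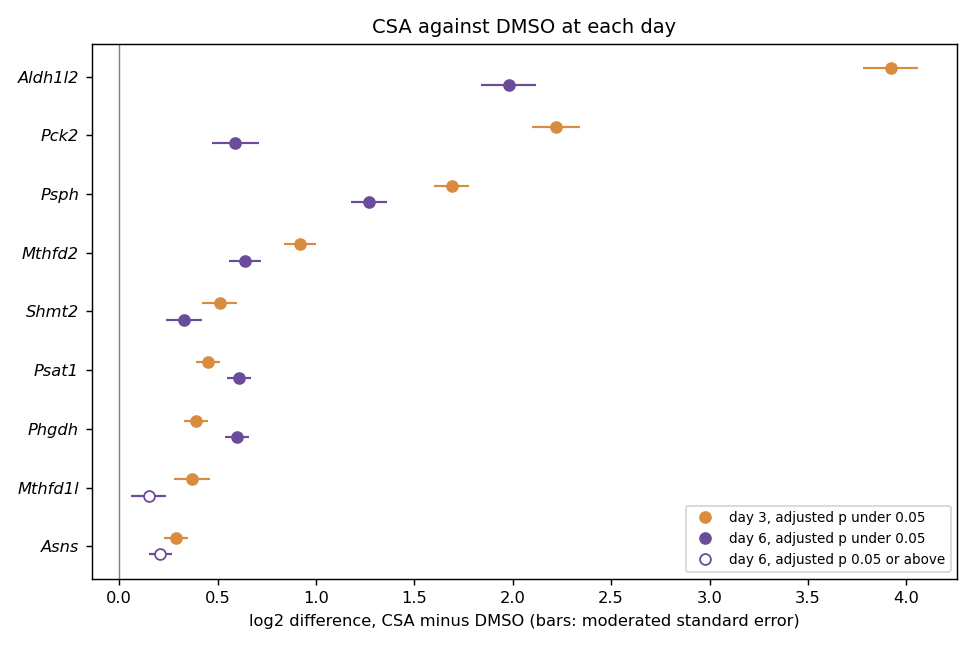
Difference between CSA and DMSO in log2 signal for each enzyme, at day 3 and at day 6, with bars of 1 moderated standard error. All 18 differences lie above 0, and those of Aldh1l2 and Pck2 are further apart between the days than the others, at 3.92 and 1.98 and at 2.22 and 0.59.

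Whether the effect of CSA differed between the days was tested as an interaction, the effect at day 6 minus that at day 3. For Aldh1l2 it was -1.94 ± 0.19 and for Pck2 -1.64 ± 0.16, both with an adjusted p of 0.000781. These were 2 of the 9 enzymes, where 3.43% of all genes had a lower effect at day 6 past the threshold. The other 7 did not pass, with values between -0.41 ± 0.12 for Psph (adjusted p = 0.0943) and 0.21 ± 0.09 for Phgdh (adjusted p = 0.229). At an unadjusted p under 0.05 there were 5 of 9, beside 5048 of the 27022 probe sets. With no intensity trend, no probe set of the series passed the interaction, and Aldh1l2 and Pck2 had adjusted p of 0.077 and 0.0983.

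Between the days the enzymes fell into 2 sets. In DMSO cells Psat1 fell by 1.12 ± 0.06 between the days (adjusted p = 3.79e-07), Psph by 1.03 ± 0.09 (5.55e-06) and Phgdh by 0.70 ± 0.06 (8.6e-06). Of the folate enzymes, Mthfd2 fell by 0.71 ± 0.08 (4.57e-05), Shmt2 by 0.57 ± 0.09 (0.000496) and Mthfd1l by 0.54 ± 0.09 (0.00044), and Asns fell by 0.30 ± 0.06 (0.00349). The Shmt2 call was lost as the mean of its probe sets (-0.27, adjusted p = 0.114), and the Asns call with no intensity trend (0.064). The dimmer Shmt2 probe sets were at -0.64 (adjusted p = 0.00508), -0.41 (0.126) and 0.55 (0.239). Aldh1l2 rose 2.45-fold (1.29 ± 0.14, adjusted p = 2.41e-05) and Pck2 2.79-fold (1.48 ± 0.12, adjusted p = 2.9e-06). The median was -0.57, beside 0.10 over all tested probe sets.

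In CSA cells 8 of the 9 fell between the days, where 15.8% of all genes did. The differences were -1.44 ± 0.09 for Psph (adjusted p = 1.37e-06), -0.99 ± 0.08 for Mthfd2 (1.04e-05) and -0.96 ± 0.06 for Psat1 (2.4e-06). A dimmer probe set of Phgdh did not pass (-0.12, adjusted p = 0.242), nor did those of Shmt2 at -0.07 (0.823) and -0.87 (0.0833). The remaining probe sets of Phgdh and Shmt2 passed as lower. Aldh1l2, which rose in DMSO cells, fell in CSA cells by 0.65 ± 0.14 (adjusted p = 0.00415), a call lost without CSA day 3 replicate 1 (0.0523). Pck2 differed by -0.16 ± 0.12 and did not pass (adjusted p = 0.337). The median over the 9 was -0.74, beside 0.12 over all tested probe sets, and each CSA array of day 6 was below each of day 3 for all 9, as for 26.2% of tested probe sets. The day comparisons use the same arrays as those of CSA with DMSO, so they add no separate samples.

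**Figure D3:**
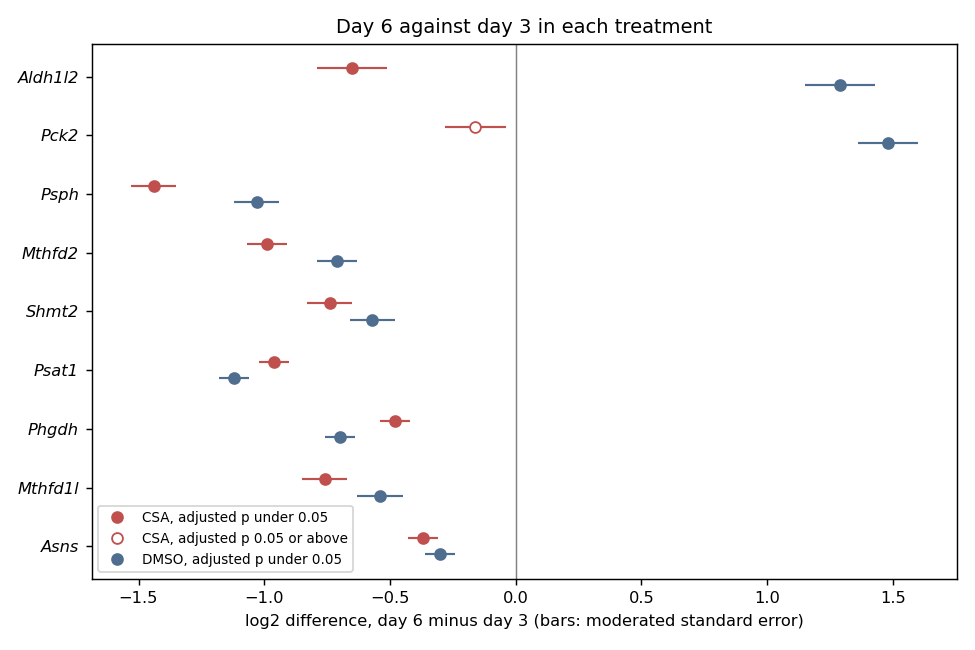
Difference in log2 signal of day 6 minus day 3 for each enzyme, in CSA cells and in DMSO cells, with bars of 1 moderated standard error. The 7 other enzymes lie below 0 in both treatments, while Aldh1l2 and Pck2 lie at 1.29 and 1.48 in DMSO cells and at -0.65 and -0.16 in CSA cells.

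These signs held when the arrays were set to equal medians, which took 0.22 off the CSA differences between days and 0.25 off the DMSO ones. The values were then -0.87 in CSA cells and 1.04 in DMSO cells for Aldh1l2. For Pck2 they were -0.37 in CSA cells, which passed (adjusted p = 0.0263), and 1.23 in DMSO cells. After quantile normalization Asns in DMSO cells was at -0.09 and did not pass (adjusted p = 0.247).

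The order of the 4 group means took 3 forms. For 6 enzymes, Phgdh, Psat1, Shmt2, Mthfd2, Mthfd1l and Asns, it was CSA at day 3, DMSO at day 3, CSA at day 6 and DMSO at day 6, from high to low. For Psph the middle pair was turned round, with CSA at day 6 above DMSO at day 3 by 0.25. For Aldh1l2 and Pck2 CSA at day 6 came second, above DMSO at day 3 by 3.27 and 2.07, and DMSO at day 3 was lowest. Of the neighbours in these orders, the arrays of CSA at day 6 and DMSO at day 3 overlapped for Mthfd2 and Asns, with mean differences of -0.07 and -0.08. These 2 groups differ in both treatment and day, and the difference between them was not tested.

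Several genes were read by more than 1 probe set, 19 in all, of which 16 were higher past the threshold at day 3 and 14 at day 6, beside 5.35% and 5.11% of tested probe sets. The 3 other probe sets of Phgdh rose at both days, by 0.38 to 0.48 at day 3 and 0.46 to 0.64 at day 6. All 4 carry a suffix for probes that may also bind other transcripts, and 2 further probe sets are annotated to Phgdh together with a pseudogene, so Phgdh may include signal of near copies. The second Asns probe set rose by 0.49 (adjusted p = 0.000577) and 0.31 (adjusted p = 0.007), and the second one of Mthfd2 by 0.95 and 0.70. The second Asns probe set carries that suffix too, while the brighter one, which did not pass at day 6, does not.

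Elsewhere the probe sets of a gene gave different sizes. The second probe set of Psat1 differed by 0.32 at day 3 (adjusted p = 0.082) and 1.09 at day 6 (adjusted p = 0.000107), with an interaction of 0.77 ± 0.15 (adjusted p = 0.0151), whereas that of its brighter probe set was 0.16 ± 0.09 (adjusted p = 0.368). The 3 dimmer probe sets of Shmt2 differed by 0.32, 0.51 and 1.40 at day 3 and by 0.21, 0.85 and -0.02 at day 6. Of these 6 values, 1.40 (adjusted p = 0.0284) and 0.85 (adjusted p = 0.0216) passed. Both come from probe sets with the suffix described for Phgdh, which the brightest Shmt2 probe set carries too. The Shmt2 probe set without that suffix, at 0.32 and 0.21, passed at neither day (adjusted p = 0.215 and 0.455). Signal of other transcripts may thus be part of the Shmt2 values. The second Pck2 probe set rose by 2.20 at day 3 (adjusted p = 0.000779) and differed by 0.65 at day 6 (adjusted p = 0.188). Its interaction of -1.55 ± 0.4 did not pass (adjusted p = 0.0556).

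Promoter sequence was looked at because the enzymes moved together with CSA. The 8 letters TGATGNAA form the core of the composite element bound by ATF4 with C/EBP partners. They were searched on both strands of the 250 bases before the start given by each RefSeq promoter entry of GRCm38.p6. That start can lie inside the span of the gene. Of the 10 enzyme genes, 9 had an entry, and 3 of these held a match, Asns, Pck2 and Pycr1. Aldh1l2 had no entry, so its promoter was not searched. Of all 32851 promoters in the table, 3.45% held one. A match is only a run of letters, and no match says nothing of the factor. The 2 measured genes with a match are shown with Psph, which rose more than Asns and has none in the window searched. Capitals mark the match.
Asns, chr6:7693210-7693459, minus strand: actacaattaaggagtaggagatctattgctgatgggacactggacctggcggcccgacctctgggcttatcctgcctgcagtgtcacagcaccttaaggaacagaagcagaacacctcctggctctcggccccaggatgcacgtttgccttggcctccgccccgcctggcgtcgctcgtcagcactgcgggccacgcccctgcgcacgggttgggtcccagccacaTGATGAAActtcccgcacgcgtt
Pck2, chr14:55540016-55540265, plus strand: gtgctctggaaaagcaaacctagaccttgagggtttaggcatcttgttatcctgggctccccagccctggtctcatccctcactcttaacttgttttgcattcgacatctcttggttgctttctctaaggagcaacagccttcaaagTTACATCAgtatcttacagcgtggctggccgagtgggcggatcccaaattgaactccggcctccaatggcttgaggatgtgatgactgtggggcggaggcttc
Psph, chr5:129787254-129787503, minus strand: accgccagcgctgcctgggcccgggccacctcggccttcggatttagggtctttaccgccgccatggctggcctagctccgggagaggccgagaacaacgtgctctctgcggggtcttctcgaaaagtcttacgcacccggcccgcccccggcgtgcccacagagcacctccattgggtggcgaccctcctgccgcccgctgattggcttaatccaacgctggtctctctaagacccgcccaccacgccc
The match in Asns reads TGATGAAA on the strand of the gene and begins at position -23, counted back from -1 at the last base before the start. That in Pck2 reads TTACATCA, the motif on the opposite strand, and begins at -103. In the same annotation Asns spans chr6:7675165-7693209 and Pck2 spans chr14:55540263-55550020. Psph spans chr5:129765558-129787443, so most of its window lies inside the span of the gene. The same holds for most of the Mthfd1l window, for the whole Mthfd2 window and for a Psat1 window. Bases further upstream of these genes were not all searched.

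None of the 5 tested paralogs of these enzymes, read from their brightest probe sets, passed as higher with CSA at either day. Mthfd1, the cytosolic enzyme that joins the activities of Mthfd2 and Mthfd1l, gave 11.06 and 10.89 with CSA at day 3, against 11.59 and 11.51 with DMSO. At day 6 it gave 11.07 and 11.03 with CSA, against 11.59 and 11.55 with DMSO. Mthfd1 thus fell with CSA at both days, by 0.57 ± 0.08 (adjusted p = 0.00141) and 0.52 ± 0.08 (adjusted p = 0.0022), the opposite sign to Mthfd2, although the difference between the genes was not tested. With no intensity trend in the fit its adjusted p were 0.0607 and 0.0662.

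Shmt1, the cytosolic partner of Shmt2, read 9.18 and 9.08 with CSA at day 3, against 9.47 and 9.49 with DMSO, and 8.49 and 8.69 with CSA at day 6, against 9.07 and 9.05 with DMSO. Its differences were -0.35 ± 0.13 (adjusted p = 0.117) and -0.47 ± 0.13 (adjusted p = 0.0402), and the second was lost on leaving out any CSA array or either DMSO array of day 6 (0.0547 to 0.173). Mthfd2l, a second mitochondrial dehydrogenase, differed by -0.36 ± 0.16 at day 3 and 0.44 ± 0.16 at day 6, and neither passed, although the mean of its probe sets did at day 6 (0.68, adjusted p = 0.0275). For Aldh1l1, the cytosolic counterpart of Aldh1l2, the differences were -0.11 ± 0.60 and 0.23 ± 0.60, errors too wide to show a change of this size. Pck1, the cytosolic counterpart of Pck2, was below the filter, and Pycrl, a paralog of Pycr1, differed by -0.11 ± 0.17 and 0.02 ± 0.17.

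Of the other folate and glycine genes, 18 of 26 listed were tested. With CSA 0 rose and 2 fell at day 3 (median -0.18), where 5.52% of all genes fell, and 0 rose and 3 fell at day 6 (median 0.05), where 6.11% of all genes fell. Besides Mthfd1 and Shmt1 these were Gcsh and Gldc, parts of the glycine cleavage system. Gcsh fell by 0.40 ± 0.07 at day 3 (adjusted p = 0.00438, or 0.0556 without CSA day 3 replicate 2). Gldc fell by 1.37 ± 0.30 at day 6 (adjusted p = 0.0144), a call lost without CSA day 6 replicate 2 (0.0898) or DMSO day 6 replicate 1 (0.0918) or 2 (0.0984). Between the days more of this list fell than rose in both treatments, with 10 lower and 2 higher in CSA cells and 11 lower and 2 higher in DMSO cells. Over all genes 15.8% fell in CSA cells, where 8358 of the 27022 tested probe sets passed in either direction. In DMSO cells 19.6% of all genes fell and 26.1% rose. Without CSA day 3 replicate 1 the counts in CSA cells were 6 lower and 0 higher.

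Purine synthesis, which consumes the formate, had 12 tested genes, of which 0 rose with CSA, 1 fell at day 3 and 2 fell at day 6 (medians -0.14 and -0.17), beside 5.52% and 6.11% of all genes that fell. They were Ppat, the enzyme of the committed step, at -0.39 ± 0.09 (adjusted p = 0.0175) and -0.45 ± 0.09 (adjusted p = 0.00937), and Pfas at day 6, at -0.52 ± 0.13 (adjusted p = 0.0248). The day 3 call of Ppat was lost without CSA day 3 replicate 1 (0.127) or 2 (0.0738) or DMSO day 3 replicate 1 (0.0754). Both calls at day 6 were lost on leaving out either DMSO array of that day or 1 of the CSA arrays, with adjusted p of 0.0593 to 0.152.

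Among 7 tested genes of methionine and transsulfuration metabolism 1 rose and 2 fell at day 3 (median -0.11), and 0 passed at day 6 (median -0.05), beside 7.14% of all genes higher and 5.52% lower at day 3. Cth, which releases cysteine from cystathionine, rose by 0.61 ± 0.06 at day 3 (adjusted p = 0.000133) and differed by -0.05 at day 6, an interaction of -0.67. Ahcy fell by 0.40 ± 0.07 at day 3 (adjusted p = 0.0054, or 0.0669 without CSA day 3 replicate 2). Mtap fell by 0.28 ± 0.07 (adjusted p = 0.0185), a call lost on leaving out any single array of day 3 (0.0564 to 0.116).

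In the list of proline, glutamate and aspartate enzymes 2 of 14 tested genes rose and 0 fell at day 3 (median -0.13), and 0 rose and 2 fell at day 6 (median -0.01). Over all genes 7.14% rose at day 3 and 6.11% fell at day 6. Gpt2, the mitochondrial alanine aminotransferase, gave 11.93 and 11.89 with CSA at day 3, against 10.02 and 10.05 with DMSO. At day 6 it gave 11.17 and 10.96 with CSA, against 11.12 and 10.91 with DMSO, so that the groups overlapped. Gpt2 rose by 1.87 ± 0.10 at day 3 (adjusted p = 1.62e-06) and differed by 0.05 at day 6 (adjusted p = 0.829), an interaction of -1.82 ± 0.14 (adjusted p = 0.000285). Aldh18a1, the enzyme before Pycr1 in proline synthesis, rose by 0.71 ± 0.08 at day 3 (adjusted p = 0.000337) and differed by 0.18 at day 6 (adjusted p = 0.192). Prodh, which breaks proline down, was at 0.10 at day 3 (adjusted p = 0.758), and at day 6 it fell by 0.85 ± 0.15 (adjusted p = 0.00464). Asrgl1, an asparaginase, was at -0.52 ± 0.15 at day 6 (adjusted p = 0.0499), a call lost on leaving out any single array (0.0564 to 0.266).

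The list of serine breakdown and gluconeogenic enzymes had 5 tested genes, with 0 higher and 1 lower at each day, medians of -0.75 and -0.11, and shares of all genes lower of 5.52% and 6.11%. The gene was Fbp2, the muscle type of fructose bisphosphatase, which fell by 1.27 ± 0.13 at day 3 (adjusted p = 0.000239) and 1.70 ± 0.13 at day 6 (adjusted p = 2.92e-05).

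Known targets of ATF4 and stress genes outside the enzyme list went up beside it. Of 31 tested, 26 rose and 0 fell at day 3 (median 0.67), and 15 rose and 1 fell at day 6 (median 0.41). Over all genes 7.14% rose at day 3, and 6.41% rose and 6.11% fell at day 6. Atf4 itself, named after its values were seen, gave 12.65 and 12.55 with CSA at day 3, against 12.01 and 11.94 with DMSO, and 12.33 and 12.45 with CSA at day 6, against 11.99 and 11.97 with DMSO. It rose by 0.62 ± 0.07 (adjusted p = 0.000404) and 0.41 ± 0.07 (adjusted p = 0.00434), with adjusted p of 0.0515 and 0.0982 where no intensity trend was fitted. Atf5, a related factor, rose by 2.26 ± 0.10 and 2.06 ± 0.10, and Nupr1, a stress-induced regulator, by 1.32 ± 0.07 and 1.31 ± 0.07. Chac1, which degrades glutathione, rose by 1.95 ± 0.17 at day 3 and 1.91 ± 0.17 at day 6, and Ddit3, also called CHOP, by 1.39 ± 0.15 and 1.94 ± 0.15. As the mean of its probe sets, Ddit3 differed by 1.52 and 1.7 and did not pass (adjusted p = 0.0974 and 0.0678). The arginine transporter Slc7a3 rose by 1.85 ± 0.10 at day 3 and 0.56 ± 0.10 at day 6 (adjusted p = 0.00565, or 0.0534 without DMSO day 6 replicate 1). The 1 gene that fell was Slc1a5, a glutamine transporter, at -0.62 ± 0.09 at day 6 (adjusted p = 0.00172), also named after its values were seen. With no intensity trend in the fit the counts of risen genes were 13 and 7.

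**Figure D4:**
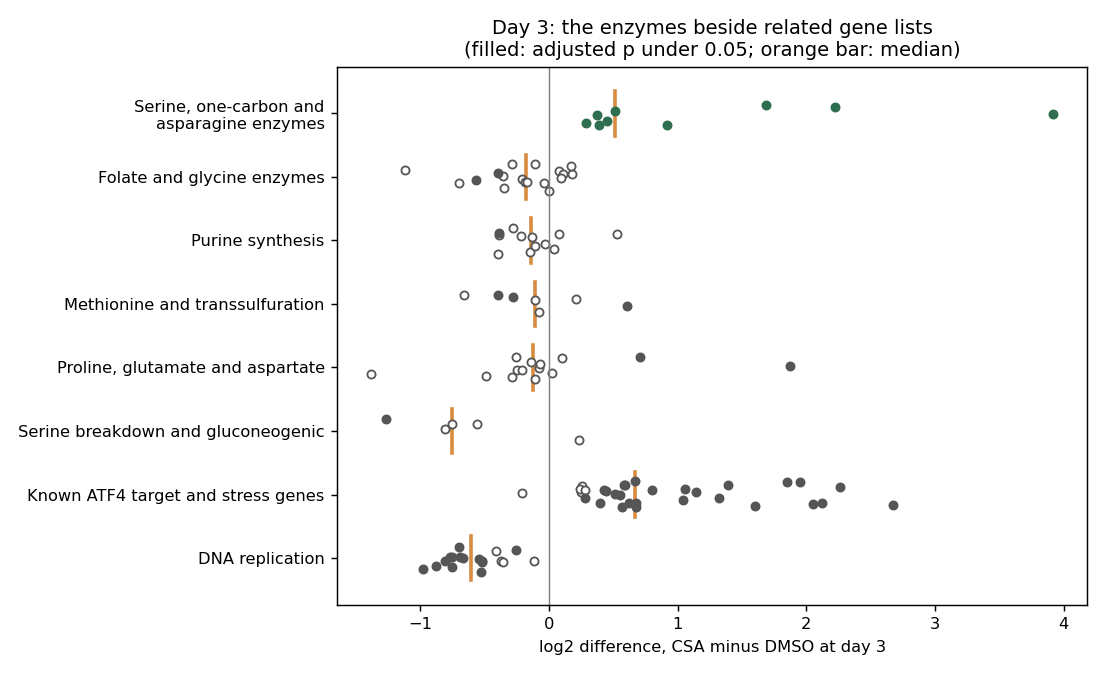
Difference between CSA and DMSO at day 3 in log2 signal for each tested gene of the enzyme list and of the related lists, with 1 point per gene and a line at each list's median. The medians are 0.51 for the 9 enzymes, 0.67 for the ATF4 target and stress list, -0.18 for folate and glycine genes and -0.60 for DNA replication.

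Markers of proliferation and of other cell types also differed between the groups, and their part in the enzyme results was not tested. Of 18 DNA replication genes 14 fell with CSA at day 3 (median -0.60), where 5.52% of all genes did. At day 6, 2 fell (median -0.06), where 6.11% of all genes did. Mcm5, a subunit of the replicative helicase, was at -0.98 ± 0.07 at day 3 and -0.01 at day 6, and the ribonucleotide reductase subunit Rrm1 at -0.81 ± 0.09 and -0.25. The summed anti-logged signal of the list was 46600 to 48900 with CSA and 70100 to 71300 with DMSO at day 3, and 43700 to 44600 with CSA and 45900 to 48900 with DMSO at day 6. With no intensity trend in the fit 7 of these genes fell at day 3, and without CSA day 6 replicate 2 or DMSO day 6 replicate 1 the count at day 6 was 0.

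Of the cell type lists, the summed signal of the 6 keratinocyte markers, 4 of them tested, was 12100 to 12600 with CSA against 7510 to 7540 with DMSO at day 3, and 11400 to 11500 against 10400 to 11100 at day 6. That of the 4 smooth muscle markers, 3 of them tested, was 7540 to 7640 with CSA against 7660 to 7890 with DMSO at day 3, and 11800 to 12200 against 6580 to 7110 at day 6. For the 7 fibroblast markers, all tested, it was 10200 to 10300 with CSA against 9360 with DMSO at day 3, and 21700 to 21800 against 25800 to 25900 at day 6. A sum is carried by its brightest genes. Of these 7 markers, 1 passed as higher and 1 as lower at day 3 (median difference 0.02). At day 6, 0 passed as higher and 1 as lower (median -0.18). Over all genes 7.14% rose and 5.52% fell at day 3, and 6.41% rose and 6.11% fell at day 6. Over all arrays 6 macrophage and blood markers (4 tested) summed to 472 to 713, 5 endothelial markers (2 tested) to 1450 to 2140, and 3 hepatocyte markers (1 tested) to 33.8 to 170. At day 6 the endothelial sum was 2070 to 2140 with CSA against 1460 to 1490 with DMSO. That of macrophage and blood markers was then 676 to 713 against 559 to 578. At day 3 the 2 sums were 1450 to 1590 against 1530 to 1590, and 472 to 476 against 480 to 496. Between CSA and DMSO 1 endothelial marker passed as higher at day 6, and no other marker of these 3 lists passed. The 8 markers of the labelled cells (5 tested) summed to 9430 to 9870 with CSA against 7890 to 8170 with DMSO at day 3, and to 9810 to 10300 against 13600 to 14400 at day 6. Over the tested genes, the median differences at day 3 and day 6 were 0.66 and 0.12 for keratinocyte markers. They were -0.07 and 0.77 for smooth muscle markers, and 0.29 and -0.5 for markers of the labelled cells. Of the 4 tested keratinocyte markers 3 passed as higher at day 3 and 0 at day 6. Of the 3 tested smooth muscle markers 0 passed at day 3, and 3 were higher at day 6. Of the 5 tested markers of the labelled cells, 2 passed as higher at day 3 and 3 as lower at day 6. The shares over all genes are those given beside the fibroblast markers. No marker was at a log2 signal of 0 on any array. In bulk RNA, fewer cells of a type and less RNA per cell cannot be told apart.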

How the data were processed

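Biotin-labelled cRNA of 8 cultures was hybridised to 3' expression arrays, 1 per culture. The authors deposited 1 log2 signal for each of 45037 probe sets and array; the submitters' processing notes name MAS5 with no version, and its scaling target is not given in the sources used here. In the deposited log2 signals the trimmed mean of the anti-logged values (2% off each end) was 496.8 to 497.5 on every array, and 110 to 259 values per array were exactly 0. The arrays carry no count, so depth does not apply.

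Probe sets with a mean log2 signal of at least 5.37, the 40th percentile, were tested, 27022 in all. Names came from the platform annotation, which gave 1 symbol for 34945 probe sets and several for 932, and which lacks 9160. Probe sets with several symbols gave no gene its name, and each of 12529 genes was read from its probe set of highest mean. Limma 3.58.1 in R 4.3.3 fitted 1 mean per group to all 8 arrays (4 residual degrees of freedom), with the prior variance following signal intensity (trend). The tests were two-sided, with Benjamini-Hochberg adjustment over all tested probe sets and a threshold of 0.05. Standard errors rest on the spread within all 4 groups, moderated toward that prior variance, which is drawn from all tested probe sets. The procedure was tested on simulated data.

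The enzymes, the related lists, the motif and the alternatives were chosen with earlier results of these data known. Named genes are all enzymes and their paralogs, up to 4 genes past the threshold with the smallest p of each list and comparison, of which the text gives a part, and the genes with profiles nearest to the enzymes' median, to Aldh1l2 and to Asns. Alternatives were other filters, quantile normalization, equal medians, a floor at a log2 signal of 5, a pseudocount of 32, no intensity trend, only the 4 arrays compared, averaging all probe sets of a gene, a replicate block, and leaving out each array. Same-numbered arrays did not deviate together (correlations of -0.003 to 0.034 over 6 pairs of groups). No other alternatives were added. Detection calls, scan dates and array batches were not used here.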

Additional observations from a re-analysis of the deposited data

Results flagged for a closer look

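For 15 of the probe sets described, the effect of CSA differed between the days by limma's test of the interaction, day 6 minus day 3 on the log2 scale. Among the enzymes these were Aldh1l2 at -1.94, Pck2 at -1.64 and the second probe set of Psat1 at 0.77, the 1 enzyme probe set that passed with a larger effect at day 6. The second probe set of Pck2, at -1.55, did not pass (adjusted p = 0.0556). Among related genes they were Gpt2 at -1.82, Prodh at -0.95, Cth at -0.67, Aldh18a1 at -0.53 and Gcsh at 0.46. In the other lists they were Slc7a3 at -1.29, the reprogramming markers Pou5f1 at -1.56 and Cdh1 at -0.79, and the replication genes Mcm5 at 0.97, Mcm3 at 0.55, Rrm1 at 0.55 and Mcm7 at 0.52. In all, 4 of 31 ATF4 target and stress genes were lower and 8 of 18 replication genes higher in this test. Over all genes 3.43% were lower in it, and 1144 of the 27022 tested probe sets passed in either direction. On leaving out 1 array, Rrm1 was lost without 6 of the 8 arrays (0.0588 to 0.135), Mcm3 without 5 (0.0522 to 0.0891) and Mcm7 without 2 (0.0579 and 0.0633). The interaction of Aldh1l2 and Pck2 passed on leaving out any 1 of the 8 arrays. That of Gcsh was lost without either CSA array of day 3 (0.0708 and 0.112), without DMSO day 3 replicate 1 (0.0534), without either CSA array of day 6 (0.0554 and 0.062) and without DMSO day 6 replicate 1 (0.0987). Aldh18a1 was lost on leaving out any CSA array or either DMSO array of day 6 (0.055 to 0.111), and Prodh without 6 of the arrays, all but CSA day 6 replicate 2 and DMSO day 3 replicate 2 (0.0531 to 0.114). These interactions share the same 8 arrays with the comparisons of CSA and DMSO at each day.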

How the results depend on the processing

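Over 801 values of the enzymes under the alternatives, 763 kept their direction and their side of the threshold, 30 lost a call, 8 gained one and 0 changed sign. With no intensity trend, 4 enzymes passed for CSA at day 3 (9 at an unadjusted p under 0.05, and 5425 of all probe sets), and 0 passed the interaction (3 at an unadjusted p under 0.05, and 4287 of all probe sets). Over the fits that left out 1 array, 6 to 9 enzymes passed for CSA at day 3, 5 to 8 at day 6, 7 to 8 between the days in CSA cells, 9 to 9 in DMSO cells and 2 to 2 for the interaction. With a replicate block the counts were 9, 7, 8, 9 and 2, and the block changed no enzyme's call; Pfas (0.0464) and Asrgl1 (0.0475) then passed at day 3. The probe sets of the whole series past the threshold numbered 2588 for CSA at day 3, 442 with no trend and 1076 to 2641 with an array left out. They were 2612, 694 and 1112 to 2848 at day 6, and 8358 between the days in CSA cells, with 5417 to 8822 on leaving out an array. For the interaction there were 1144, 0 with no trend and 390 to 994 with an array left out. Mcm5 at day 6, at -0.01, was at 0.47 as the mean of its probe sets (adjusted p = 0.037), and the cause was not tested. Detection calls were not used here, so signal over background is not known for the dimmer values, such as Aldh1l2 in DMSO cells at day 3.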

Other observations

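Other genes were ranked by how closely their 4 group means, each centred on the gene's own mean, followed the median profile of the enzymes, whose centred values were 0.74 with CSA and 0.02 with DMSO at day 3, and -0.06 with CSA and -0.59 with DMSO at day 6. The 8 nearest of the 12529 tested genes were Mpv17l2, Htr1b, Dnah5, Adh1, Gm5802, Mfsd11, Kdsr and Nars, with root mean square differences of 0.031 to 0.086. Of the 8, 5 also passed for CSA against DMSO at both days. Mpv17l2, a mitochondrial membrane protein, rose by 0.69 at day 3 and 0.53 at day 6, and Nars, the cytosolic asparaginyl-tRNA synthetase, by 0.57 at each day. Kdsr, an enzyme of sphingolipid synthesis, rose by 0.56 and 0.69. Dnah5, Adh1 and Gm5802 did not pass at either day. Nearest to Aldh1l2 were B4galnt2 at 0.372 and the cystine transporter Slc7a11 at 0.483, and nearest to Asns were Rab22a at 0.007 and Srp9 at 0.014. For CSA against DMSO at day 3, B4galnt2 (adjusted p = 0.0451), Slc7a11 (0.00563) and Srp9 (0.0221) passed, and Rab22a did not (0.0967). None of them passed at day 6 (0.0745 to 0.343). Among the enzymes themselves the distance from their median profile ran from 0.109 for Mthfd2 and 0.112 for Shmt2 to 0.868 for Pck2 and 1.34 for Aldh1l2. With 4 group means a close match is easily met, and the nearness is a description.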
